A study of Homo sapiens with 40 samples.

Results

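Interferon-stimulated effector genes are the genes that cells switch on in response to interferon and whose products act directly on viruses, foreign nucleic acid or immune signalling. The set described here holds 49 genes of 19689 protein-coding genes, chosen by name: the IFIT RNA-binding proteins, the OAS enzymes, membrane and entry factors, the MX and GBP GTPases, the ISG15 conjugation pathway, TRIM proteins, PARP9, PARP14 and DTX3L, secreted proteins, nucleic-acid sensing and translation factors, and other IFI and nuclear genes. For each gene the H3K27ac and the CTCF peak with the highest mean count within 2 kb of any of its protein-coding start sites in GENCODE 44 was taken, and an enhancer was assigned to a gene when it lay in the gene or had that gene as its nearest within 100 kb. All 49 genes were found in the annotation.

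The chromatin comes from EndoC-βH3, a human pancreatic beta-like cell line that carries an inducible CreER recombinase. Non-senescent control cells were compared with cells in which senescence had been induced by 4-hydroxytamoxifen for 3 weeks. The paper states that activated CreER excises the immortalising transgenes, which encode hTERT and Large T-antigen. The labels give both states the same line and the WT genotype, but the states differ in these transgenes. The series holds 40 libraries: 3 per state for H3K27ac and for CTCF, 2 per state for H3K4me1 and for Rb, and as many input libraries. All libraries come from 1 established cell line, and the labels do not say whether the libraries of a state came from separate cultures.

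The 51489 H3K27ac peaks and the 51457 CTCF peaks each carry a mean count, the authors' average of normalised read counts over the libraries of both states. These averages sum to 19239499 counts for H3K27ac and 6136424 for CTCF. Values per library are not used here, so no replicate error stands beside a peak's level, and intervals on shares of genes are 95% Wilson intervals that cover counting error only. Enhancer lists give positions for each state, and Rb regions are those that the authors called in senescent against non-senescent cells. In a bulk culture, few cells with a mark and a low level of the mark in every cell cannot be told apart.

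Type I interferon binds its receptor and activates the kinases JAK1 and TYK2, and a complex that holds IRF9 then binds the interferon-stimulated response element (ISRE) in the promoters of effector genes. Interferon gamma acts through the GAS element. H3K27ac, acetylation of lysine 27 on histone H3, marks active promoters and enhancers, and CTCF is the zinc-finger protein that anchors chromatin loops. In islets, beta cells under viral or autoimmune attack are known for a strong interferon signature.

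Most of the genes with a promoter sequence held an ISRE near their start. The sequence itself was not used to choose the genes. They were chosen as genes that respond to interferon, so a high share is not independent of the choice. It was searched as GAAANNGAAA, N being any base, on both strands of the RefSeq promoters (GRCh38.p14, 250 bases before to 50 bases after each gene's start). Promoters were matched by symbol for 39 of the 49 genes, and 29 of the 39 (74.4%, interval 58.9% to 85.4%) held at least 1 match. The same letters were found in 642 of 15307 protein-coding genes (4.19%) and in 1255 of all 35116 promoters (3.57%). Counting only matches before the start, 26 of the 39 held one, against 3.63% of protein-coding genes. The genes with a match were BST2, CXCL10, DTX3L, EIF2AK2, EPSTI1, GBP1, HERC5, IFI27, IFI44, IFI44L, IFI6, IFIT1, IFIT3, IFIT5, IFITM1, IFITM3, ISG15, ISG20, LGALS3BP, MX1, OAS3, PARP14, PARP9, PLSCR1, RSAD2, SAMD9, TRIM14, TRIM21 and TRIM5. The 10 without one were CMPK2, HERC6, IFI16, IFI35, OAS1, SAMD9L, SP100, TRIM25, UBE2L6 and XAF1. No entry was matched for APOL1, CCL5, GBP2, IFIT2, IFITM2, MX2, OAS2, OASL, TRIM22 and USP18.

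The sites are shown first for the 5 ISRE-bearing genes with the highest H3K27ac level per kb at the promoter, to let the response elements at acetylated promoters be compared. Each line gives 30 bases of hg38 read 5′ to 3′ on the strand on which the element reads GAAA, with the element in capitals.
EPSTI1, chr13:42992272-42992301, minus strand: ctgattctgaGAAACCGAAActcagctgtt
IFIT5, chr10:89414554-89414583, minus strand: cgagcgctcaGAAACTGAAActtaagaaat
PLSCR1, chr3:146544667-146544696, minus strand: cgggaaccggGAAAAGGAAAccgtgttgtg
HERC5, chr4:88457035-88457064, minus strand: agctccagtgGAAAACGAAAcataatgttt
EIF2AK2, chr2:37156967-37156996, minus strand: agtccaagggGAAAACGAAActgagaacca

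The second set comes from the 12 ISRE-bearing genes that had no H3K27ac peak at the promoter, shown because their element is present without a listed peak. In ISG15 and BST2 overlapping elements give a run of GAAA repeats.
ISG15, chr1:1013380-1013409, plus strand: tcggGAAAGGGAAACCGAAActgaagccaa
BST2, chr19:17405735-17405764, minus strand: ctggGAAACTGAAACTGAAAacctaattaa
CXCL10, chr4:76023699-76023728, minus strand: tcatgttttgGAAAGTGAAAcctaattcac
GBP1, chr1:89065316-89065345, plus strand: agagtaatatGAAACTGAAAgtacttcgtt
IFI27, chr14:94110631-94110660, plus strand: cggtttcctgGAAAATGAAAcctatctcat
IFI44, chr1:78649761-78649790, minus strand: tcagagaaagGAAACTGAAActcagtgtgc
IFI44L, chr1:78620365-78620394, plus strand: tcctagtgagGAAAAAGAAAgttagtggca
IFIT3, chr10:89327865-89327894, minus strand: gaggaaactgGAAAGTGAAActaatttaaa
IFITM1, chr11:314024-314053, plus strand: acacttctgaGAAACTGAAAcgacagggga
LGALS3BP, chr17:78979962-78979991, minus strand: gtggtttctgGAAATCGAAAgtagactctt
PARP14, chr3:122680800-122680829, plus strand: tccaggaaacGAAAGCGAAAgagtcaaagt
TRIM5, chr11:5685082-5685111, plus strand: ctcagggcagGAAAGTGAAAgataaactat

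Longer stretches are given for the genes of both sets whose last 150 bases before the start hold a match and no annotated exon, written on the gene's own strand with each match in capitals, where TTTC is GAAA on the other strand. HERC5, the E3 ligase that attaches ISG15 to newly made proteins, held 3 matches there and had an H3K27ac peak. ISG15, the ubiquitin-like modifier itself, held 2, and PARP14, an ADP-ribosyltransferase, held 1, and neither had an H3K27ac promoter peak.
HERC5, chr4:88456969-88457118, plus strand: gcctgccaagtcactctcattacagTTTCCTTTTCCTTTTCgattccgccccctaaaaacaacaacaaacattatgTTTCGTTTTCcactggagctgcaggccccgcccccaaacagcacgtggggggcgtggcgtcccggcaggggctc
ISG15, chr1:1013347-1013496, plus strand: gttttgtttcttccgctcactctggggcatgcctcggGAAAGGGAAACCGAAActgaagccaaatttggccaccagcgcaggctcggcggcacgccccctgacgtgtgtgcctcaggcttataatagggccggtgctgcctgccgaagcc
PARP14, chr3:122680689-122680838, plus strand: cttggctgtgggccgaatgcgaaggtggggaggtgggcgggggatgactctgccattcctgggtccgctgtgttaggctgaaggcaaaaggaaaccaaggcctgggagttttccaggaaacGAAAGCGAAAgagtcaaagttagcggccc

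In the 29 genes there were 48 matches, of which 41 ended before the start and 20 lay within the last 100 bases before it. The first base of the element lay between position -221 (CXCL10) and position 23 (TRIM21), position 0 being the start base. The element read GAAA on the gene's strand in 28 matches and on the other strand in 20, and 14 genes held more than 1. PARP9 and DTX3L, which face away from each other and encode partner proteins, shared the same element at chr3:122564332-122564341. With 1 mismatch allowed, the letters occurred in 34.2% of protein-coding genes and in 36 of the 39. GAS, searched as TTCNNNGAA, occurred in 9 of the 39 promoters (23.1%, interval 12.6% to 38.3%) against 1378 of the 15307 protein-coding genes, in BST2, EPSTI1, IFI27, IFI35, IFITM1, MX1, OAS1, PARP14 and PLSCR1, and 7 of these also held an ISRE. Of 31 other genes of the interferon pathway (receptors, kinases, transcription factors, sensors and inhibitors), 21 were matched and 4 held an ISRE (19.0%): AIM2, IFIH1, SOCS1 and TLR3. A match describes letters in a window and not binding of a factor.

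**Figure D1:**
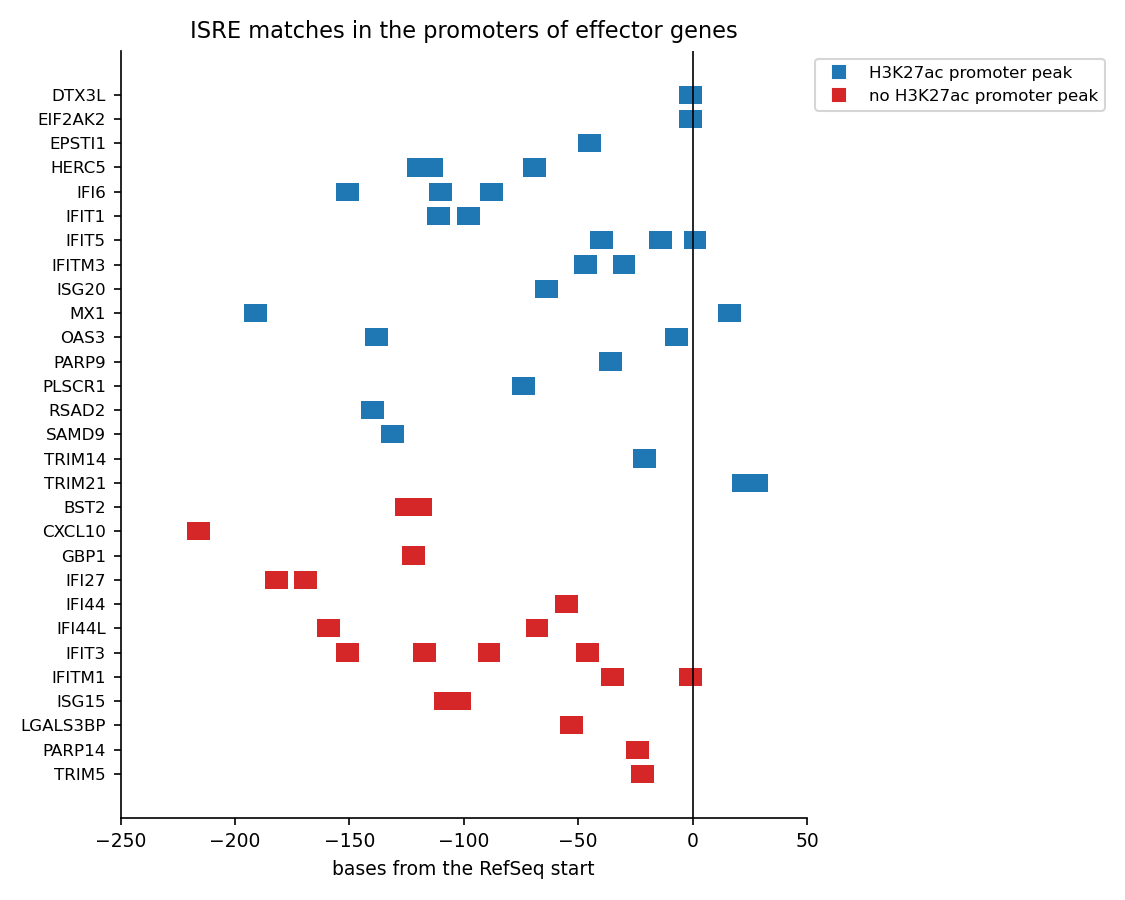
Position of every ISRE match (bars, 10 bases) in the promoters of the 29 effector genes that held one, in bases from the RefSeq start (x axis). Blue genes had an H3K27ac peak at the promoter and red genes did not, and 41 of the 48 matches end before the start.

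An H3K27ac peak stood at the promoter of 25 of the 49 genes (51.0%, interval 37.5% to 64.4%), against 66.4% of all protein-coding genes. The median level over these 25 was 123 mean counts per kb of peak, against 184 over the 13065 genes with a peak, and 22 of the 25 lay at or below that all-gene median. Their peaks were also narrower, with a median width of 1956 bp against 2976 bp. The 25 genes used 23 distinct peaks, because RSAD2 and CMPK2 shared chr2:6864932-6866905 (110 mean counts per kb) and PARP9 and DTX3L shared chr3:122563533-122565488 (125 mean counts per kb). Both pairs start back to back, so the mark cannot be assigned to either gene of a pair.

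Among the other 31 pathway genes, 22 (71.0%, interval 53.4% to 83.9%) had an H3K27ac promoter peak, with a median of 177 mean counts per kb. All 10 beta and endocrine markers, the defining genes of the labelled cell type, had one, with a median of 481 mean counts per kb and a lowest value of 230 at INS. Among the markers of other cell types, 1 of 6 immune genes and 2 of 3 exocrine genes had an H3K27ac promoter peak. None of 4 fibroblast or 3 endothelial genes did. The levels were 238 mean counts per kb at the immune gene CD68, and 298 at CPA1 and 122 at KRT19, the exocrine genes. CPA1 and CD68 thus lay above INS.

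**Figure D2:**
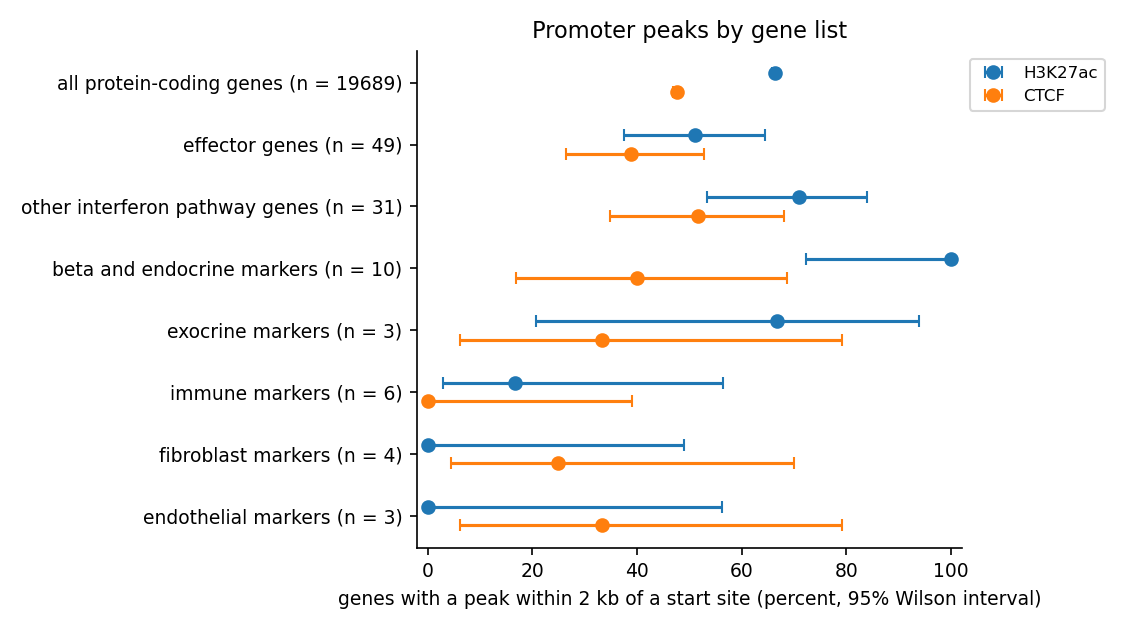
Share of genes with an H3K27ac (blue) or CTCF (orange) peak within 2 kb of a start site (x axis, percent), with 95% Wilson intervals, for the effector genes and other gene lists. The effector genes lie at 51.0% for H3K27ac, below all protein-coding genes at 66.4%, and the interval of the shorter marker lists is wide.

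The highest promoter level belonged to USP18, the protease that removes ISG15 from its targets and restrains interferon receptor signalling. Its peak at chr22:18147024-18151622 covered the start and held 304 mean counts per kb (1397 mean counts), above 82.2% of genes with a peak. EPSTI1, an epithelial-stromal interaction protein, followed at chr13:42988956-42993486 with 236 mean counts per kb (1070 mean counts). IFIT5, which binds single-stranded viral RNA, had 223 mean counts per kb at chr10:89413855-89416077, a peak that also lay at a start site of LIPA, the lysosomal acid lipase gene. These 3 genes alone exceeded the all-gene median of 184. PLSCR1, a phospholipid scramblase that restricts virus entry, and HERC5 stood just below it with 173 and 172 mean counts per kb, at chr3:146543476-146545564 and chr4:88455534-88458251.

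The 5 lowest levels were those of MX1, OAS1, MX2, IFIT1 and TRIM21. MX1, a dynamin-like GTPase that traps viral nucleocapsids, had 35.6 mean counts per kb at chr21:41419781-41420541, above 1.03% of genes with a peak. OAS1, which makes the 2-5A messenger that activates RNase L, had 44.2 mean counts per kb at chr12:112906389-112907212. MX2, the MX1 paralogue that acts on retroviruses, had 50.3 mean counts per kb at chr21:41369495-41370497. IFIT1, which binds viral RNA lacking cap methylation, had 56.7 at chr10:89392011-89392847, and TRIM21, a cytosolic antibody receptor, had 59.8 at chr11:4393184-4393808. All 5 of these peaks held between 27.1 and 50.4 mean counts in total, so their levels rest on few reads, and 4 of the 25 genes lost their peak when a mean count of at least 50 was asked for.

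For 5 of the 25 genes the chosen peak was not within 2 kb of the canonical start. The IFIT2 peak at chr10:89282445-89285076 (167 mean counts per kb) covered an upstream start site and ended 17.0 kb before the canonical start. At the canonical start a weaker peak held 46.4 mean counts per kb. The RSAD2 peak shared with CMPK2 was 10.9 kb from the canonical RSAD2 start, whose own peak held 90.3 mean counts per kb. IFITM3, MX1 and MX2 had no peak within 2 kb of the canonical start, and with canonical starts alone 22 of the 49 genes had an H3K27ac promoter peak, against 63.9% of all genes.

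The 24 genes without an H3K27ac promoter peak were APOL1, BST2, CCL5, CXCL10, GBP1, GBP2, IFI16, IFI27, IFI44, IFI44L, IFIT3, IFITM1, IFITM2, ISG15, LGALS3BP, OAS2, OASL, PARP14, SAMD9L, SP100, TRIM22, TRIM5, UBE2L6 and XAF1. Their nearest H3K27ac peak lay 2044 bp (GBP2) to 535327 bp (IFI44) from a start site, with a median of 32447 bp, within 10 kb for 4 of them and beyond 100 kb for 7. GBP2 lay just outside the 2 kb window, with a peak of 56.1 mean counts per kb. Among the genes with a promoter peak, only IFITM3 had a peak that covered no start site, 784 bp from the closest. The absence of a called peak says that none was listed, not that the mark was absent.

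**Figure D3:**
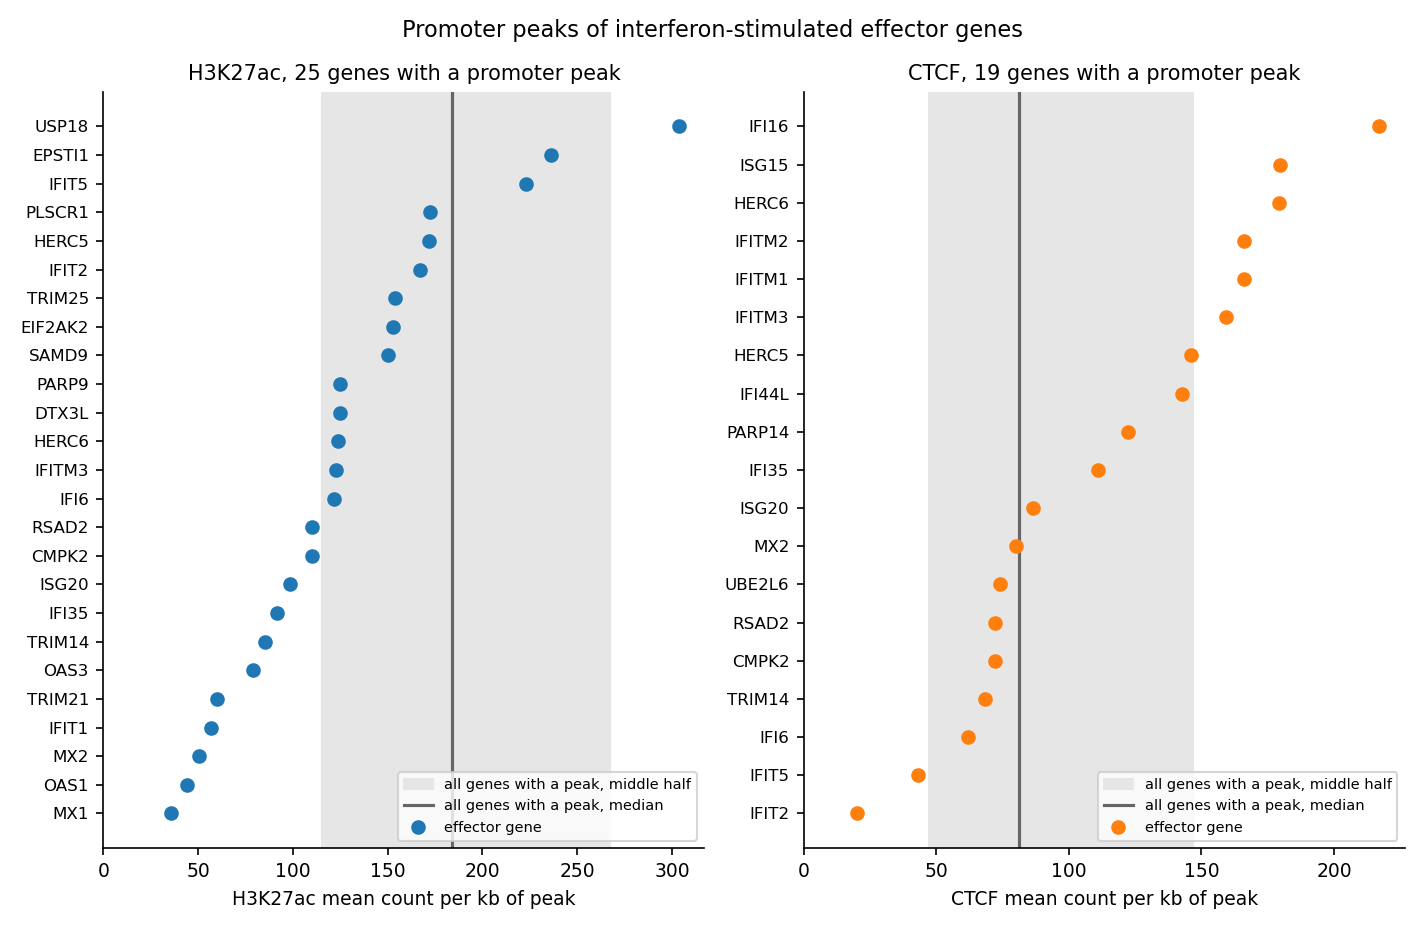
Mean count per kb of the promoter peak (x axes, authors' mean over both states) for each effector gene with an H3K27ac peak (left) or a CTCF peak (right). The line and grey band are the median and the middle quartiles over all protein-coding genes with a peak, and 22 of 25 genes lie at or below the line for H3K27ac and 11 of 19 above it for CTCF.

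The functional groups hold 3 to 8 genes each, so their shares of genes with a listed H3K27ac promoter peak are uncertain. The set as a whole stood at 51.0% and all protein-coding genes at 66.4%. In every group but the secreted proteins (interval 0% to 49.0%) the interval held both values. Of PARP9, PARP14 and DTX3L, 2 of 3 had a peak, which PARP9 and DTX3L shared. Among the IFIT genes 3 of 4 had an H3K27ac promoter peak, at 56.7 to 223 mean counts per kb, and among the OAS enzymes 2 of 4, at 44.2 (OAS1) and 79.1 (OAS3). Of the 7 genes grouped as membrane and entry factors, 4 had a peak, at 110 to 173 mean counts per kb, on 3 distinct peaks. Among them were RSAD2 (viperin) and CMPK2, which share a peak. CMPK2 is a nucleotide kinase rather than a membrane or entry factor. In the MX and GBP group both MX genes had a peak and both GBP genes, whose GTPases attack pathogen vacuoles, did not. The MX peaks held 35.6 and 50.3 mean counts per kb and lay away from the canonical starts. A GBP2 peak of 56.1 mean counts per kb lay just outside the window, at 2044 bp, so this contrast rests on the window. In the ISG15 pathway 3 of 5 had a peak, at 124 to 304 mean counts per kb, with HERC6 at the lower end, and the modifier ISG15 and its E2 enzyme UBE2L6 had none.

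TRIM14, TRIM21 and TRIM25 had a peak at 59.8 to 154 mean counts per kb, the highest at TRIM25, the ligase that activates RIG-I, whereas TRIM5 and TRIM22 had none. None of the 4 secreted proteins had a peak: the chemokines CXCL10 and CCL5, the galectin-3 ligand LGALS3BP and the apolipoprotein APOL1. Of the nucleic-acid sensing and translation factors 3 of 5 had a peak, at 98.5 to 153 mean counts per kb: the exonuclease ISG20, SAMD9, and EIF2AK2, the kinase PKR that halts translation on double-stranded RNA. In the last group of 8, IFI6, IFI35 and EPSTI1 had a peak, and IFI27, IFI44, IFI44L, the XIAP inhibitor XAF1 and the nuclear body protein SP100 did not. Counts per group are small, and no test was made between groups.

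Promoter base composition moved with the presence of a peak. A promoter was called CpG-rich at a GC content of at least 50% and an observed over expected CpG ratio of at least 0.6, and CpG-poor otherwise, a split added after the peaks had been seen. Of the 39 genes with a sequence, 24 (61.5%) were CpG-poor, against 33.0% of protein-coding genes. Among the CpG-poor genes 10 of 24 had an H3K27ac peak (41.7%, interval 24.5% to 61.2%), against 35.2% of CpG-poor genes in all, and among the CpG-rich genes 12 of 15 did (80.0%, interval 54.8% to 93.0%), against 85.6%. In both classes the interval holds the all-gene share. The class was read at the promoter nearest the canonical start, but the chosen peak could belong to another start. This was so for RSAD2 and IFITM3, called CpG-poor, and for MX1, called CpG-rich. The RSAD2 peak was the one shared with CMPK2, which was called CpG-rich. The level per kb was lower in both classes, at a median of 104 against 146 mean counts per kb for CpG-poor and 125 against 194 for CpG-rich promoters. ISG15, PARP14 and UBE2L6 were the 3 CpG-rich genes without a peak. The part of base composition in the lower share was not tested further.

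**Figure D4:**
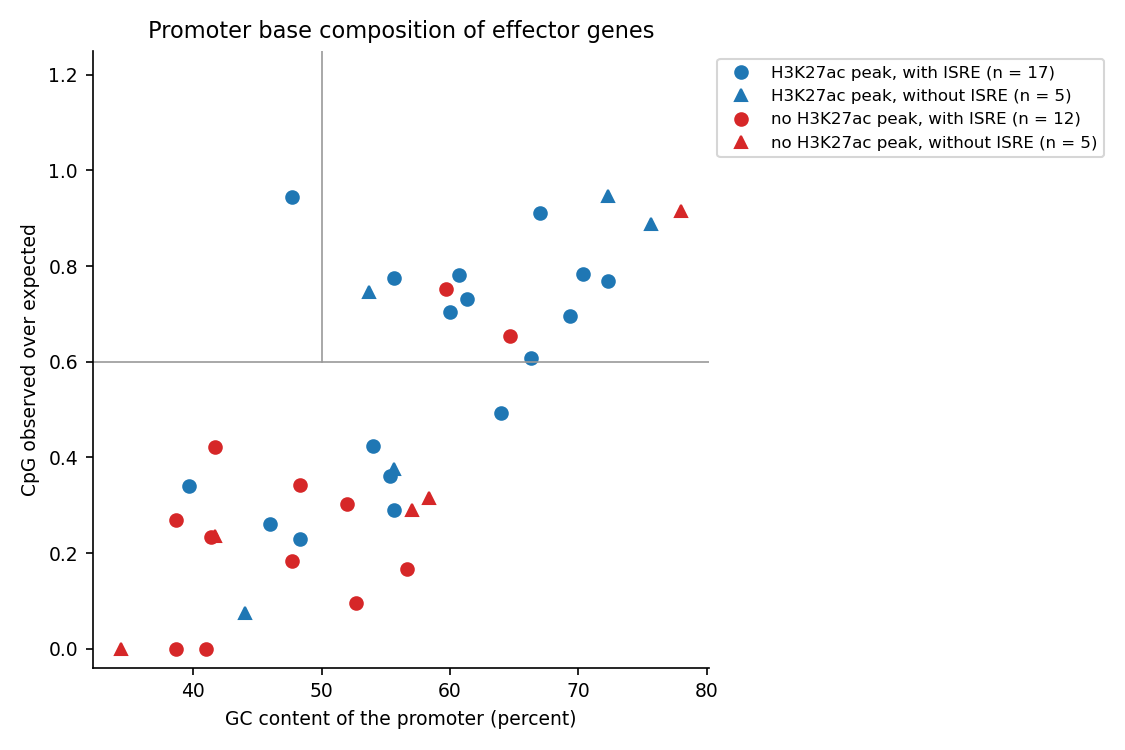
GC content (x axis, percent) and observed over expected CpG ratio (y axis) of the 39 effector gene promoters with a sequence, coloured by whether an H3K27ac peak was listed and shaped by whether an ISRE was found. Grey lines bound the CpG-rich class, where 12 of 15 genes had a peak.

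The ISRE occurred at promoters with and without a listed H3K27ac peak. Of the genes with a sequence, 17 of 22 with an H3K27ac peak held one (77.3%) and 12 of 17 without a peak (70.6%). In 15 genes the element lay inside an H3K27ac peak, and in 5 of these, HERC5, IFI6, IFIT5, ISG20 and TRIM14, it also lay inside a CTCF peak. IFITM3 and MX1 had a promoter peak that did not cover the element.

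A CTCF peak stood at the promoter of 19 of the 49 genes (38.8%, interval 26.4% to 52.8%), against 47.6% of protein-coding genes, a value that the interval holds. With peaks of at least 50 mean counts the order of the shares turned, at 17 of 49 genes (34.7%) against 29.7%. The median level was 111 mean counts per kb against 81.3 over all genes with a CTCF promoter peak, and 11 of the 19 lay above that value. The order of the medians also depended on the settings. With a 5 kb window the median was 84.5 against 92.0 mean counts per kb, and with peaks of at least 50 mean counts it was 122 against 128. A CTCF peak covered a start site in 12 of the 49 genes (24.5%), against 29.5% of protein-coding genes.

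The 5 highest CTCF promoter peaks by mean count were those of IFI16, IFITM3, the pair IFITM1 and IFITM2, ISG15 and IFI44L. IFI16, a nuclear DNA sensor, had 491 mean counts at chr1:158997640-158999904, ending 64 bp before its most upstream start and 10003 bp from the canonical one. IFITM3, which blocks fusion of entering viruses, had 357 mean counts at chr11:317559-319796, 1045 bp from its closest start site and overlapping the downstream end of the gene. IFITM1 and IFITM2 shared the peak at chr11:310166-312073 with 317 mean counts. It covered a start site of IFITM1, and lay 1967 bp from the canonical IFITM1 start and 1153 bp from the closest IFITM2 start. The 3 IFITM genes are close paralogues, and reads that fit several copies could be split between them.

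ISG15 had 259 mean counts at chr1:1001437-1002879, close to an upstream start site, 10618 bp from the canonical start and also at a start of HES4. IFI44L had 222 mean counts at chr1:78617119-78618676, 1226 bp from a start site. Of these genes only IFITM3 also had an H3K27ac promoter peak. RSAD2 and CMPK2 shared a CTCF peak as well, at chr2:6866214-6866997 with 56.6 mean counts. None of the OAS enzymes and none of the secreted proteins had a CTCF promoter peak.

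The core of the CTCF motif was searched as CCANNAGNNGGC on both strands and occurred without mismatch in 3 of the 17 distinct peaks (17.6%), against 23.6% of all 51457 CTCF peaks. These exact letters are not the motif model that the study used to filter CTCF peaks. A peak without them can still hold the motif. The 3 are shown because their core places the site, as 30 bases on the strand of the motif with the core in capitals.
IFI16, chr1:158998856-158998885, minus strand: taggtattgCCACAAGGTGGCagtaacttc
ISG15, chr1:1002021-1002050, minus strand: ggatgacccCCAGCAGGAGGCggcggcgac
HERC5, chr4:88456824-88456853, minus strand: gctgcagttCCACTAGGAGGCaccctgaca

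Of the 49 genes 27 lay in 11 clusters in which neighbours were at most 150 kb apart, and 22 lay alone. The IFIT cluster at chr10:89283694-89421605 held IFIT2, IFIT3, IFIT1 and IFIT5 over 137912 bp, with 5 H3K27ac peaks of 46.4 to 223 mean counts per kb and 3 CTCF peaks of at most 69.0 mean counts. Stronger CTCF peaks stood outside it on both sides, with 257 mean counts between -42.2 kb and -40.6 kb from the canonical IFIT2 start and 224 mean counts between 123 kb and 125 kb. IFIT3 had no promoter peak. A peak of 97.0 mean counts per kb lay inside the annotated span of IFIT3, between 71.7 kb and 75.1 kb from the IFIT2 start. It lay close to IFIT1B, which spans 76.0 kb to 83.2 kb, and to which gene it belongs was not tested.

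The IFI44L and IFI44 cluster at chr1:78619902-78664078 held no H3K27ac peak, and SAMD9 and SAMD9L on chromosome 7 held 1, at SAMD9, and no CTCF peak. HERC6 and HERC5 both had both kinds of peak. The OAS cluster at chr12:112905856-113011723 held 2 H3K27ac peaks, at OAS1 and OAS3, and 3 CTCF peaks of at most 107 mean counts, none of them at an OAS promoter.

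Enhancer positions are compared here between the states, whereas the levels of peaks are averages over both states. A listed enhancer lay in or nearest to 9 of the 49 genes (18.4%, interval 9.98% to 31.4%), against 35.0% of protein-coding genes: APOL1, HERC6, IFIT2, IFIT5, IFITM3, MX2, RSAD2, TRIM14 and USP18. These genes had 10 enhancers in non-senescent and 9 in senescent cells, which covered 29229 bp and 29125 bp. Of the 10, 3 overlapped no senescent enhancer (interval 10.8% to 60.3%), against 29.4% of all 14886 non-senescent enhancers, and of the 9, 2 overlapped no non-senescent enhancer (22.2%, interval 6.32% to 54.7%), against 20.5% of all 13076 senescent enhancers. Both intervals hold the value of the whole list. By gene, 2 of 49 had an enhancer listed in senescent cells only (4.08%), against 10.0% of protein-coding genes, and 2 of 49 had one listed in non-senescent cells only (4.08%), against 13.7%.

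The enhancers listed in senescent cells only belonged to IFIT5 and TRIM14. That of IFIT5 was chr10:89474476-89476312, 57271 bp from the nearest IFIT5 start and inside SLC16A12, and its H3K27ac peak held 54.7 mean counts per kb, above 8.42% of peaks in enhancers. That of TRIM14, an adaptor on the mitochondrial signalling protein MAVS, was chr9:98141973-98144415, 22751 bp from its start and inside CORO2A, with 53.7 mean counts per kb. The enhancers listed in non-senescent cells only belonged to TRIM14 and MX2. TRIM14 had chr9:98082646-98084280 and chr9:98085514-98087058, both inside the gene but nearest to a start of NANS, the second overlapping a canonical exon and the first intronic, with 55.1 and 69.3 mean counts per kb. MX2 had chr21:41369887-41370386, which covered a start site, with 50.3 mean counts per kb. All 5 stood on peaks below the median of 91.4 mean counts per kb over the 17156 H3K27ac peaks in enhancers. Levels are means over both states, and that median includes peaks in enhancers of both states. The low levels could therefore follow from the averaging, which was not tested.

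The 7 enhancers that both states listed stood on peaks of 62.4 to 368 mean counts per kb. The highest belonged to USP18, inside the gene, where non-senescent cells listed chr22:18162599-18167684 and senescent cells chr22:18162703-18166789, on a peak of 368 mean counts per kb, above 98.4% of peaks in enhancers. IFIT5 had an enhancer inside SLC16A12 on a peak of 185 mean counts per kb, 6930 bp wide in non-senescent and 6746 bp in senescent cells. The IFIT2 enhancer at the upstream start also lay inside LIPA. It was 2153 bp wide in non-senescent and 2605 bp in senescent cells, on 167 mean counts per kb. IFITM3 (123), HERC6 (117), APOL1 (104) and RSAD2 (62.4 mean counts per kb) made up the rest, and RSAD2 was the only shared enhancer on a peak below the median. In senescent cells the RSAD2 enhancer lay 51189 bp from an RSAD2 start and 51344 bp from a CMPK2 start. Its assignment to RSAD2 is therefore nearly a tie. Summed by gene, the listed length was greater in senescent cells for 3 of the 9 genes, IFIT2, IFIT5 and RSAD2, and smaller for 6, and among all 6896 genes with an enhancer it was smaller for 49.2%. Listed length follows the peak calling in each state and is not a level of the mark.

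In all, 12 H3K27ac peaks lay in enhancers of these genes, 7 in enhancers of both states, 2 in senescent and 3 in non-senescent ones only (58.3%, 16.7% and 25.0%), against 59.7%, 15.3% and 25.0% of all 17156 peaks in enhancers. Their median was 86.8 mean counts per kb against 91.4 over all peaks in enhancers. The nearest senescent enhancer lay at a median of 171137 bp from a start site for the genes without an H3K27ac promoter peak and 76757 bp for those with one. The measures are not independent, since every listed enhancer overlapped an H3K27ac peak and the enhancers of IFIT2, IFITM3 and MX2 lay on the promoter peak itself. APOL1 was the only one of the 24 with an enhancer of its own, 5223 bp from its start in non-senescent cells.

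Rb is the retinoblastoma protein, which holds E2F target genes silent in arrested cells. An Rb region was assigned to 2 of the 49 genes (4.08%), against 3.70% of protein-coding genes. The region of EPSTI1, 72 bp at chr13:42992609-42992680, lay 368 bp before its start within the H3K27ac peak of that promoter, and 1.56% of protein-coding genes had an Rb region within 2 kb of a start. That of IFI44, 322 bp at chr1:78718746-78719067, was 56011 bp from its nearest start, in no protein-coding gene and in no H3K27ac or CTCF peak. The EPSTI1 region is shown because it is the Rb region that lies at a promoter. It is printed on the plus strand with no capitals, since the E2F letters TTTNNCGC, searched on both strands, were not in it, nor in any of the 342 Rb regions of at most 100 bases, and were found in 2.55% of all 2435 Rb regions.
EPSTI1 Rb region, chr13:42992609-42992680: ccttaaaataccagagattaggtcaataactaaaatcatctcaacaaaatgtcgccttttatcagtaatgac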

How the data were processed

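H3K27ac, CTCF, H3K4me1 and Rb ChIP-seq libraries of EndoC-βH3 cells were aligned to hg38 with Bowtie and SAMtools per the labels, peaks were called with HOMER and MACS2, and the study's methods state that CTCF peaks were filtered for the CTCF motif. Whether the CTCF peaks used here are the filtered ones was not tested. The deposited peak tables hold a mean signal, the authors' average of DESeq2 size-factor-normalised counts over the libraries of both states, used here as a level per kb of peak. The tables also hold the authors' log2 fold changes, their errors, test statistics and p-values between states, which were not used. The deposited enhancer and Rb lists hold positions.

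Region starts were read as 0-based and written 1-based. All 24 chromosome names matched hg38, and all 53 promoter entries of the genes were identical to it. Overlaps of at least 1 bp, nearest start sites and motif matches were computed in Python 3.11.15, and Wilson intervals with SciPy 1.17.1. The code was tested on simulated regions. No test between states was made. Genes were named by extremes of level, absence of a peak, state-specific enhancers, Rb regions, shared peaks and ISRE matches. The members and lists were chosen with earlier results of these data known.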

Additional observations from a re-analysis of the deposited data

How the results depend on the processing

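Of 39 alternatives, 28 left the value within 1.5 times for a count or equal to 3 digits for a median. The H3K27ac median was 122 mean counts per kb with a 5 kb window and 125 with peaks of at least 50 mean counts, below the all-gene median under every setting tried. Restricting to CpG-poor or CpG-rich promoters, chosen after seeing the data, left 10 and 12 genes with an H3K27ac peak, fewer because fewer genes were tested. The CTCF median was 86.6 with a 1 kb window, 84.5 with 5 kb and 122 with peaks of at least 50 mean counts, and it lay below the all-gene median under the last 2; with the last setting 17 genes had a CTCF peak, a share above that of all genes, and the cause was not tested. With a 50 kb reach 1 enhancer was listed in senescent cells only and 1 gene had an Rb region, and with the promoter window alone 1 gene had an Rb region. Without enhancers inside genes that lay nearest to another gene, 1 was listed in non-senescent cells only. No paired analysis was possible because the tables used hold no values per library, and for the same reason no library could be left out. Depth limits the weakest promoter peaks, MX1 with 27.1 mean counts among them.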
